A study of Gallus gallus with 2 samples.

Results

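Melanocyte-like barcodes were described by the genes they hold beside the pigment genes. They were chosen by their own counts: a barcode entered when it had more than 1000 detected genes and a unique molecular identifier (UMI) of at least 3 of 10 genes, namely the transcription factors *MITF* and *SOX10*, the receptors *KIT* and *EDNRB2*, the channel *TRPM1*, and the melanosome genes *MLPH*, *OCA2*, *GPNMB*, *MLANA* and *PMEL*. By this rule 172 of 11330 kept barcodes were melanocyte-like, 100 of 5866 in the library labelled HVP (1.70%, 95% Clopper-Pearson interval 1.39 to 2.07) and 72 of 5464 in the library labelled Normal (1.32%, 1.03 to 1.66). What follows leaves aside these 10 genes and the pigment enzymes *TYR*, *TYRP1* and *DCT*, except where they describe the cells.

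The libraries came from peritoneum of Huiyang Bearded chickens aged 40 days, with hyperpigmented visceral peritoneum (HVP) in one group and normal peritoneum in the other. Per group, tissue of 10 birds was dissociated and 1 library was made with 3' droplet chemistry (10× Genomics), which counts UMIs per gene and cell barcode. Barcodes carry no label of the bird they came from, so a group counts as 1 sample and no test between conditions was made. Groups follow the sample titles, but the file names of each library give the opposite group, so every difference between the libraries would turn round if the file names hold.

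Melanocytes are pigment cells of neural crest origin. They share this origin with Schwann cells, and the transcription factor MITF and the receptors KIT and EDNRB2 are known for their part in melanocyte development in birds. Beside melanin synthesis, the cells import amino acids, keep the ion content of melanosomes, and pass melanosomes on to neighbouring cells.

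The melanocyte-like barcodes held 460312 UMIs in the HVP library and 287850 in the Normal library, with a median of 3924.5 and 3432.5 UMIs per barcode. Other kept barcodes were deeper, with medians of 5374 and 3828.5 UMIs, so the melanocyte-like ones were the shallower set. Median shares of mitochondrial UMIs were 4.74% in the HVP and 3.29% in the Normal melanocyte-like barcodes, against 4.79% and 4.41% in the others. The libraries shared 14 barcode sequences, and 0 of these were melanocyte-like. For comparison, 54 HVP and 31 Normal kept barcodes outside the class were called Schwann-like, since they had a UMI of at least 3 of the 8 Schwann markers found in the files, among them *ERBB3*, *S100B* and *CDH19*.

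Of the markers that go with this class, *CRPL1*, *SLC6A15* and *TTR* were not part of the rule. A UMI of *CRPL1* was present in 95 of 100 and 64 of 72 melanocyte-like barcodes, against 2.84% and 2.76% of the other kept barcodes. *SLC6A15* had one in 75 of 100 and 54 of 72, against 0.0867% and 0.130% of the others. *TTR* had one in 37 of 100 and 36 of 72, against 0.104% and 0.130% of the others. After each barcode had been thinned to 2000 UMIs, which left out 1 melanocyte-like barcode per library, *CRPL1* remained in 93.9% and 88.7% of them, against 1.28% and 1.48% of the others.

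The threshold did not treat all members alike. The rule was met with exactly 3 markers by 6 HVP and 8 Normal barcodes, and with 4 or more by 94 and 64. Of the 14 at the threshold, 1 had a *CRPL1* UMI, at 0.0104% of its UMIs, and none had *SLC6A15*, *TTR* or *TRPM1*. Each of the 14 held at least 3 markers of another cell class, as did 30 of the 158 with more markers. They were also deeper, with medians of 9814.5 UMIs in HVP and 6250 in Normal, against 3793 and 3391 for those with at least 4 markers.

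Markers of blood endothelium summed to 5001 CPM (counts scaled to a common total) in the HVP and 3046 CPM in the Normal threshold barcodes, against 167 and 261 CPM with at least 4 markers and 1304 and 2307 CPM in the other kept barcodes. Fibroblast markers summed to 20594 and 23179 CPM at the threshold, against 7255 and 3617 CPM with at least 4 markers and 51687 and 33644 CPM in the others. *MITF* counts toward the rule but had a UMI in 57.6% of the other HVP and 49.2% of the other Normal barcodes. Just outside the rule, with 2 markers, lay 213 HVP and 154 Normal barcodes, of which 9 and 13 had a *CRPL1* UMI, reaching 1.13% and 3.38% of their UMIs at most. Whether the threshold barcodes hold cells of other classes or mixed droplets was not tested. Values without them are given for many, but not all, of the named genes that they move.

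*CRPL1* (chr25:2427774-2429110, GRCg7b, positions from RefSeq) was held by nearly every member. It encodes a pentraxin, a family of secreted pattern-binding proteins, and RefSeq lists *CRP* and *APCS* among its synonyms. In members with at least 4 markers *CRPL1* took from 0.119% over a median of 2.22% to 16.05% of the UMIs of a barcode in the HVP library. The same share ran from 0.196% over a median of 3.81% to 19.96% in the Normal library. Every one of these 158 barcodes held the transcript, at shares that differed widely.

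Summed over all melanocyte-like barcodes, *CRPL1* reached 24605 CPM in the HVP library, against 7.54 CPM in the other barcodes, a ratio of 3261 (95% counting interval 2881 to 3706). In the Normal library it reached 36658 CPM against 10.1 CPM, a ratio of 3613 (3187 to 4112). Its levels were 28233 and 45931 CPM with at least 4 markers. Of all *CRPL1* UMIs in kept barcodes, 97.8% and 97.7% lay in the melanocyte-like ones. Schwann-like barcodes had a *CRPL1* UMI in 0 of 54 in HVP, which by a floor of 3 counts allows a share with a UMI of up to 5.56%, and in 1 of 31 in Normal. Counting intervals cover counting error only, and cells of 1 library are not replicates.

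**Figure D1:**
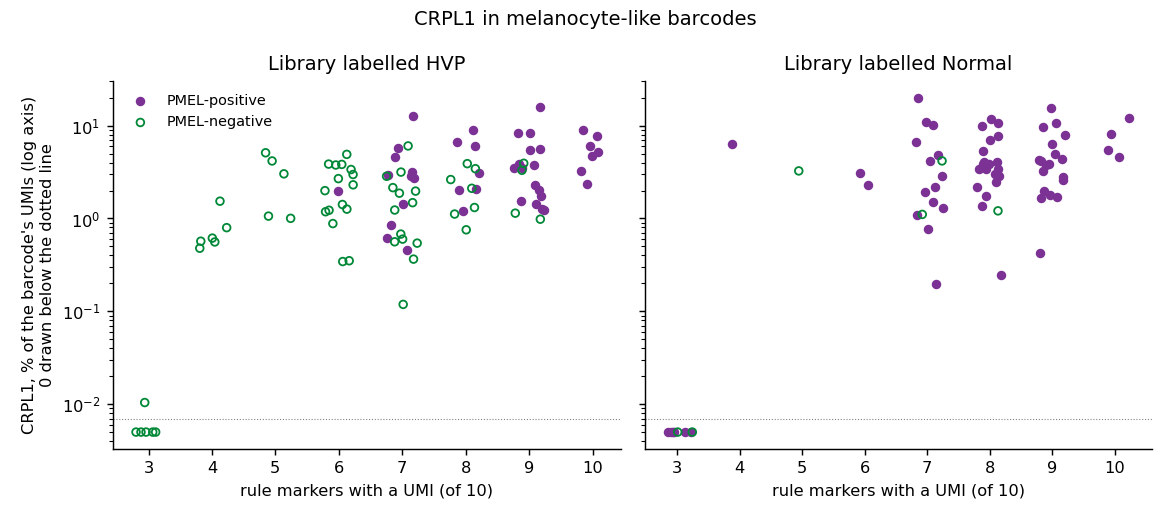
Share of each melanocyte-like barcode's UMIs taken by *CRPL1* (vertical, percent, log axis, 0 drawn below the dotted line) against the number of rule genes with a UMI (horizontal, small random offsets), one point per barcode, filled with a *PMEL* UMI and open without. All points with at least 4 markers lie above 0.1%, whereas 13 of the 14 barcodes with 3 markers lie at 0.

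Its UMIs were also more uneven than sampling gives. With at least 4 markers, the variance of *CRPL1* between members was 101 times the Poisson expectation at their depths in HVP and 114 times in Normal. The median was 2.40 and 2.08 over 225 genes with at least 100 UMIs. This measure rises with the UMIs of a gene, so it does not show *CRPL1* to be more uneven than rarer genes. *COL1A1* was at 196 times in HVP and 75.4 times in Normal, and *MGP* was at 90.8 and 101 times. For *COL1A1* a single barcode held 25.3% and 36.4% of the UMIs, and for *MGP* 44.3% and 75.4%, whereas the top barcode held 5.39% and 7.95% of those of *CRPL1*. The spread of *CRPL1* was thus carried by many barcodes.

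*CRPL2*, a paralog just beyond it (chr25:2429451-2431016), had 57 and 35 UMIs in the members, 72.4-fold (49.4 to 106) and 53.5-fold (34.0 to 83.1) above the others. Reads of neighbouring paralogs can be assigned to the wrong copy, so the *CRPL2* values are uncertain beside so abundant a neighbour.

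Across all genes with at least 20 member UMIs in each library, 66 of 2510 (2.63%) were at least 8-fold higher in the melanocyte-like barcodes in both libraries. This is a description, since the cells were chosen by their counts. The filter asked for UMIs in the members only, so a rare gene was measured only where it was high in them. The 66 and the family counts below are thus partly set by the filter. With at least 4 markers required, 65 of the 66 remained past the limit. Transporters and channels were past it in 4 of 59 measured (6.78%), secreted proteins in 3 of 75 (4%), receptors in 2 of 55 (3.64%) and regulators in 7 of 156 (4.49%). The families were set by symbol patterns, and 50 of the 66 genes belong to none, among them *CRPL1* and *CDH3*.

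Transporters of amino acids were among the genes with the largest ratios. *SLC6A15* (chr1:41691256-41727479), a sodium-dependent transporter of neutral amino acids, ran from 0 over a median of 5.21 to 36.1 UMIs per 10000 in HVP members and from 0 over 5.21 to 37.9 in Normal members. It summed to 654 CPM against 0.295 CPM in the other HVP barcodes (2219-fold, 1190 to 4674) and to 584 CPM against 0.284 CPM in the other Normal barcodes (2054-fold, 975 to 5188). The ranges in the libraries were alike, and the transcript was not found in every member.

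*SLC38A11* (chr7:19624894-19647220), of the same-named family of sodium-coupled amino acid transporters, reached 217 CPM in HVP and 149 CPM in Normal members. Other barcodes held 2 of its UMIs in each library, so the ratios of 3686 (994 to 30853) and 1840 (479 to 15683) are loosely bounded. Both Schwann-like sets had 0 of its UMIs. *SLC6A6*, the taurine transporter, was at 1393 CPM against 84.3 CPM in HVP (16.5-fold, 15.1 to 18.01) and 962 CPM against 135 CPM in Normal (7.103-fold, 6.26 to 8.03, or 8.16-fold with at least 4 markers). Unlike the others it was widespread, with a UMI in 22.0% and 26.4% of the other barcodes.

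From the list of amino acid transporters, these 3 of 7 measured were at least 2-fold higher in both libraries and 0 were lower. The others were close to the rest of the tissue: *SLC43A2* at a log2 ratio of 0.94 and 0.50, *SLC38A1* at 0.25 and 0.48, *SLC38A2* at -0.46 and -0.76 and *SLC16A10* at -1.02 and -0.04. Over all 3138 genes that passed the looser filter used for lists, 10.7% were at least 2-fold higher and 12.1% at least 2-fold lower, with median log2 ratios of 0.09 in HVP and 0.05 in Normal. The list's medians were 0.94 and 0.50. The filter for lists took genes with at least 20 UMIs per library, counted in the members or predicted for them from the other barcodes. A rare gene thus passes only where it is high in the members. *SLC6A15* and *SLC38A11* passed in this way, so the 3 higher genes and the medians are partly set by the filter.

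Among the channel genes, *KCNIP4*, a potassium channel partner, was 35.01-fold and 21.2-fold above the others, but at 267 and 108 CPM in the members it stood below the 459 and 446 CPM of Schwann-like barcodes. Its ratios were 22.1 and 14.9 with at least 4 markers, and 1 threshold barcode held 44 of its HVP UMIs, beside 79 in those with at least 4. *KCNB2*, a voltage-gated potassium channel subunit, was at 7.52 and 6.55, and at 8.64 and 8.11 with at least 4 markers.

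**Figure D2:**
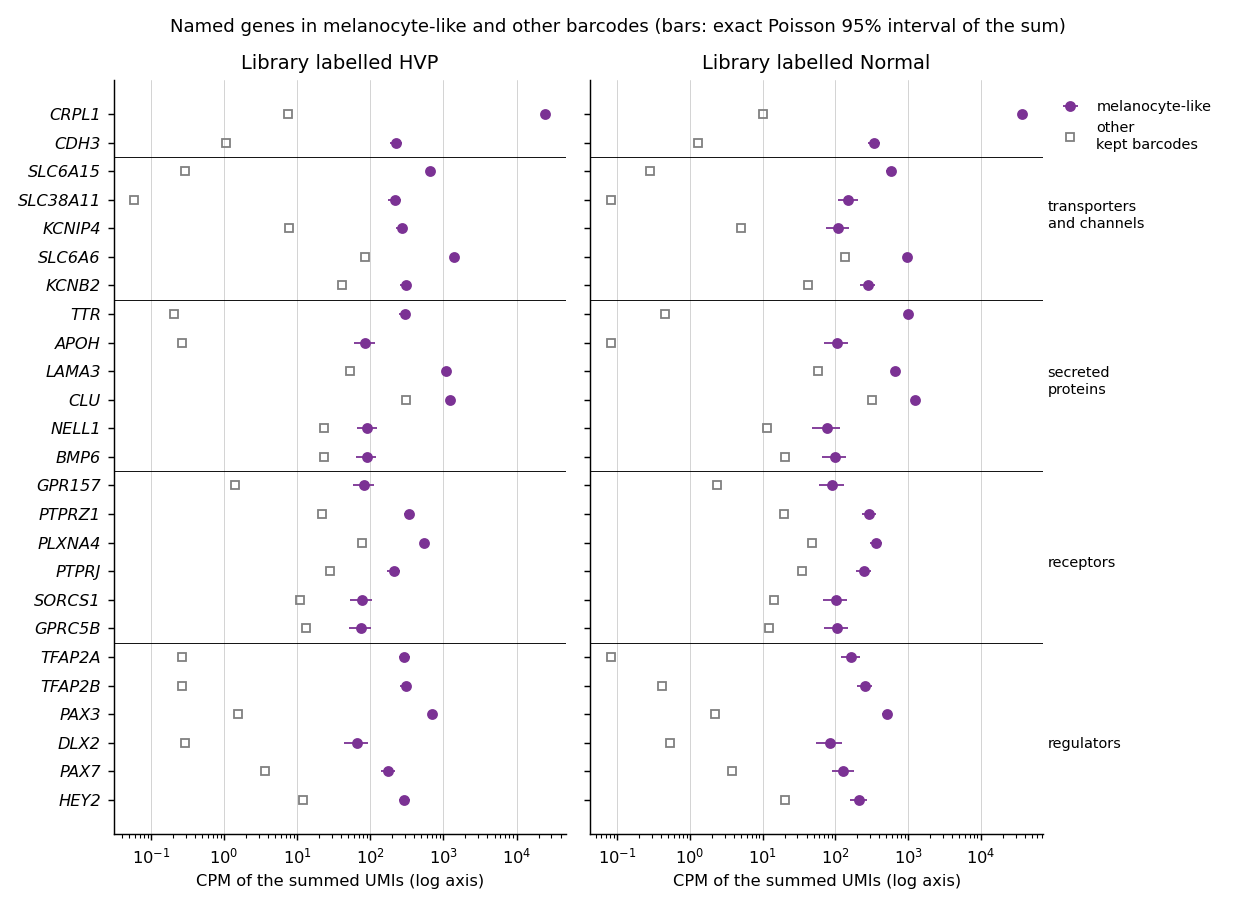
CPM of the summed UMIs (horizontal, log axis) of the named genes in melanocyte-like barcodes (filled circles, bars showing exact Poisson 95% intervals) and in other kept barcodes (open squares), for the library labelled HVP on the left and that labelled Normal on the right. *CRPL1* stands at 24605 and 36658 CPM, *SLC6A6* and *CLU* near 1000 CPM also have clear levels in other barcodes, and the AP-2 genes and *SLC38A11* are near 0 there.

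Of the secreted proteins, *TTR* stood out. Transthyretin (chr2:105791008-105800067) carries thyroid hormone and retinol-binding protein in blood and cerebrospinal fluid. Its UMIs per 10000 ran from 0 over a median of 0 to 41.8 in HVP members and from 0 over a median of 1.04 to 107 in Normal members. The sums were 295 CPM against 0.206 CPM in HVP (1432-fold, 677 to 3630) and 1011 CPM against 0.446 CPM in Normal (2264-fold, 1247 to 4587). Thus *TTR* was nearly restricted to the class, with 95.1% and 96.4% of its UMIs, yet many members had none. Schwann-like barcodes had 0 of its UMIs in both libraries.

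*APOH*, a phospholipid-binding apolipoprotein of plasma, was lower in level, with 39 and 30 UMIs in the members against 9 and 2 in all others, 319-fold (152 to 750) and 1284-fold (326 to 11088). All other barcodes with an *APOH* UMI were Schwann-like, 5 of the 54 in HVP and 2 of the 31 in Normal. Members had one in 26 of 100 and 20 of 72. *LAMA3*, a laminin chain of basement membranes, was at 1067 CPM against 52.7 CPM in HVP (20.2-fold) and 664 CPM against 58.2 CPM in Normal (11.4-fold). It was found in 90 of 100 and 57 of 72 members, at medians of 9.51 and 4.31 UMIs per 10000. *CLU*, a secreted chaperone, was abundant on both sides, at 1225 CPM against 303 CPM in HVP (4.04-fold) and 1247 CPM against 319 CPM in Normal (3.91-fold). *NELL1* (3.87-fold and 6.73-fold) and the TGF-beta family ligand *BMP6* (3.77-fold and 4.81-fold) rested on 22 to 42 UMIs per library.

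Secreted genes as a family were otherwise low: 68 of 122 were at least 2-fold lower and 7 at least 2-fold higher. Over all genes that passed the filter for lists, 12.1% were lower and 10.7% higher. In the list of secreted signals and carriers 10 of 22 were lower and 1, *TTR*, was higher, with medians of -1.05 and -1.01. *TTR* passed the filter for lists, which is given above, only by its UMIs in the members. *IGFBP5* (-2.96 and -2.51), *SERPINF1* (-2.21 and -2.08) and *PTGDS* (-2.10 and -3.18), a prostaglandin D synthase, were among the lower ones. *TGFB1* was at 0.99 and 0.66, and *SEMA3A*, an axon-repelling semaphorin, at 0.40 and 1.30.

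Extracellular matrix genes, which the stroma of this tissue makes, were lower in 16 of 20 and higher in 0, beside 12.1% and 10.7% of all genes. Their medians were -2.17 and -1.99. Without the threshold barcodes the medians were -2.75 in HVP and -2.97 in Normal. *COL1A1* stood at -2.49 and -2.11, *BGN* lowest at -3.65 and -3.50, and *LAMA4* highest at 0.79 and 0.78. The laminin chains therefore stood on different sides, *LAMA3* far above the other barcodes and *LAMA2* (-1.97 and -1.19) below them.

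The retinoid and thyroid hormone list had 6 measured genes, with medians of 2.73 and 2.59. While 10.7% of all genes were higher and 12.1% lower, 1 of the 6 was lower and 4 were higher. Beside *TTR* these were *THRB*, a thyroid hormone receptor (3.22 and 3.03, from 55 and 22 UMIs), *DHRS3*, which reduces retinaldehyde (3.09 and 2.56, from 447 and 183 UMIs), and *RARB*, a retinoic acid receptor (2.37 and 2.61, from 321 and 218 UMIs). *ALDH1A3*, which makes retinoic acid, was lower (-2.27 and -3.80), on 7 and 2 UMIs. *RXRA* was at 0.65 and 0.31. *TTR* and *THRB* passed the filter for lists only by their UMIs in the members, so the count of 4 and the medians are partly set by the filter. Most of the 25 list genes in the files had too few UMIs to be measured.

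Of 55 measured receptors 2 were past 8-fold (3.64%, beside 2.63% of all genes), with *KIT* and *EDNRB2* left out as rule genes. *GPR157*, an orphan G protein-coupled receptor, had 38 and 26 UMIs in the members, 58.4-fold (37.1 to 91.2) and 38.4-fold (23.2 to 61.9) above the other barcodes, and 0 in Schwann-like ones. *PTPRZ1*, a receptor tyrosine phosphatase known from glia, was 15.5-fold and 14.9-fold higher, but at 343 and 288 CPM it stood below the 1788 and 2190 CPM of Schwann-like barcodes. Lower ratios were found for the semaphorin receptor *PLXNA4* (7.12 and 7.71), the phosphatase *PTPRJ* (7.39 and 7.03), the sorting receptor *SORCS1* (6.94 and 6.97) and *GPRC5B* (5.66 and 8.68). *SORCS1* had a UMI in 34 of 54 HVP and 24 of 31 Normal Schwann-like barcodes, against 20 of 100 and 13 of 72 members. *PTPRJ* had one in 35 of 54 and 13 of 31, against 50 of 100 and 36 of 72 members. *PLXNA4* and *GPRC5B* were found in a larger share of the members than of the Schwann-like barcodes in both libraries.

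In the list of melanocyte and neural crest receptors, 1 of 22 was higher and 6 were lower, beside 10.7% and 12.1% of all genes. Its medians were -0.53 and -0.90, or -0.88 and -1.02 with at least 4 markers. The higher one was *MET* (2.21 and 1.72), the receptor of hepatocyte growth factor, on 81 and 37 UMIs. *MET* passed the filter for lists only by its UMIs in the members, so this count is partly set by the filter. *PDGFRA* (-2.91 and -1.33), *EGFR* (-1.83 and -2.16), *FGFR1* (-1.19 and -2.19), *EDNRA* (-1.75 and -1.48), *TGFBR2* (-1.57 and -1.37) and *LRP5* (-2.08 and -1.47) were the lower ones. *IGF1R* was near the rest of the tissue at 0.70 and 0.33.

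Several regulators of the neural crest were far higher in the class. *TFAP2A* and *TFAP2B*, the AP-2 factors of the crest, had 134 and 140 UMIs in HVP members and 47 and 73 in Normal members, against 9, 9, 2 and 10 in the other barcodes. Their ratios were 1098 (561 to 2452) and 1147 (587 to 2560) in HVP, and 2012 (527 to 17097) and 625 (321 to 1358) in Normal. *PAX3*, a paired-box factor upstream of MITF, ran from 0 over a median of 6.28 to 33.2 UMIs per 10000 in HVP and from 0 over 4.33 to 22.6 in Normal members. It summed to 691 CPM against 1.56 CPM (442-fold, 330 to 603) and 511 CPM against 2.23 CPM (229-fold, 167 to 318). It was the most widely detected of them, in 86 of 100 and 51 of 72 members.

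*PAX7*, the paralog of *PAX3* that also marks muscle satellite cells, was 47.2-fold and 34.4-fold higher. Of the 172 members, 0 held 3 of the 5 satellite cell markers, *PAX7* included. *DLX2*, a homeobox factor of the crest, was 221-fold (105 to 507) and 158-fold (77.3 to 338) higher on 30 and 24 UMIs, and *HEY2*, a Notch target, was 24.4-fold and 10.2-fold higher. Of the neural crest list 6 of 13 measured genes were higher, namely *TFAP2A*, *TFAP2B*, *PAX3*, *PAX7*, *TBX2* (1.88 and 1.79) and *SOX5* (1.87 and 1.37), and 1 was lower, *TWIST1* (-3.05 and -2.47). Over all genes that passed the filter for lists, 10.7% were higher and 12.1% lower. The list's medians were 1.44 and 1.08. *TFAP2A*, *TFAP2B*, *PAX3* and *PAX7* passed the filter for lists only by their UMIs in the members, so the count of 6 and the medians are partly set by the filter.

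Over all genes that passed the filter for lists, 10.7% were at least 2-fold higher and 12.1% at least 2-fold lower. Melanosome transport genes were higher in 2 of 10, *RAB38*, a small GTPase that sorts melanosome cargo (8.05 and 7.50), and *MYO5A*, the motor that carries melanosomes (1.79 and 1.53), with medians of -0.20 and 0.62. Adhesion genes were higher in 3 of 16 and lower in 5. *CDH3*, which encodes P-cadherin, was 213-fold (145 to 320) and 262-fold (174 to 404) higher, from 104 and 98 UMIs, *CADM1* was at 3.33 and 1.85, and *NCAM1* at 1.90 and 2.09. *RAB38* and *CDH3* passed the filter for lists only by their UMIs in the members, so the counts of both lists are partly set by the filter. Antioxidant genes were higher in 4 of 21 and lower in 3, with medians of 0.20 and 0.44. *HMOX1*, heme oxygenase (2.33 and 2.39), *GSTA3* (1.97 and 1.79), *GSTM2* (1.75 and 1.42) and the ferritin chain *FTH1* (1.65 and 1.78) were higher, and *GPX3*, *MT3* and *MT4* lower.

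Dissociation and stress genes were higher in 0 of 13 and lower in 2, *JUN* and *HSPA5*, beside 10.7% and 12.1% of all genes. Their medians were -0.73 and -0.06. Ribosomal protein genes were past 2-fold in 0 of 63, with medians of 0.25 and 0.49.

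**Figure D3:**
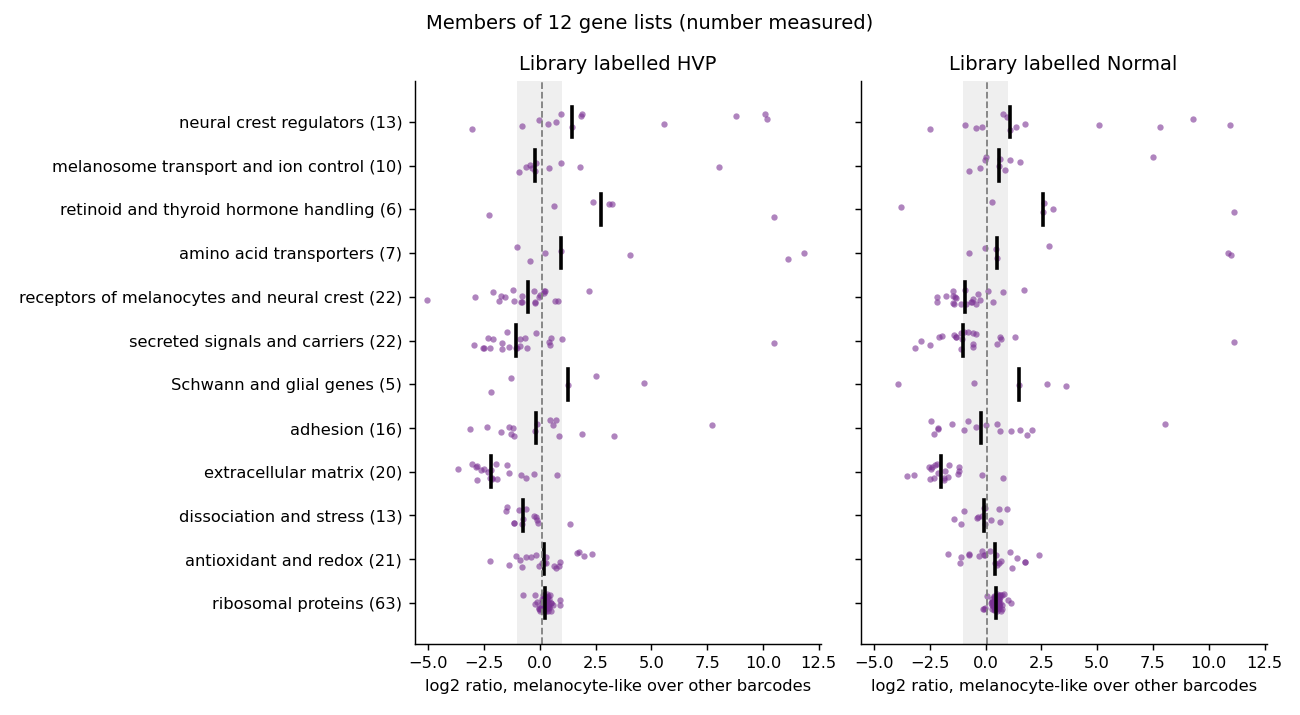
Log2 ratio of melanocyte-like over other kept barcodes (horizontal) for each measured member of the 12 lists (points, jittered in height), with the list median (black bar), the median of all 3138 genes (dashed line) and the range under 2-fold (grey band), by library. Extracellular matrix genes sit mostly left of the band, with medians of -2.17 and -1.99, and a few genes such as *TTR*, *TFAP2A* and *SLC6A15* lie beyond 9.

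Schwann cells share the crest origin, and part of the list of higher genes was common to both. Of the 66 genes, 21 were also at least 8-fold above the other barcodes in Schwann-like ones in both libraries. At or above the members' level there were 8, among them *CRYAB*, *PRNP*, *SYP* and *PTPRZ1*. Schwann-like barcodes of both libraries had 0 UMIs of 10 others, among them *TTR*, *SLC38A11*, *GPR157*, *SIM2*, *RAB38* and *PRLH*. The share of all measured genes at these levels was not counted, so the 21, 8 and 10 cannot be read as an excess or a lack. From the Schwann and glial list 3 of 5 measured genes were higher in melanocyte-like barcodes, *CRYAB* (4.67 and 3.62), *CDH19* (2.52 and 2.75) and *MBP* (1.25 and 1.52). Over all genes that passed the filter for lists, 10.7% were higher. *PMP22*, a myelin protein, was at -1.30 and -0.52, and stood at 263 and 372 CPM in the members against 8035 and 9566 CPM in Schwann-like barcodes.

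Several genes named for neurons were past 8-fold as well, and these were picked out after their values had been seen. *TENM2*, a teneurin, was 114-fold and 64.2-fold higher, *NLGN4Y*, a neuroligin, 82.5-fold and 60.1-fold, and *SYP*, synaptophysin, 60.3-fold and 88.9-fold. The contactins *CNTN3* (172-fold and 171-fold) and *CNTN1* (14.0-fold and 10.3-fold) and the synaptotagmin *SYT1* (8.10-fold and 15.1-fold) belong here too. Chosen the same way, *RORB*, a nuclear receptor, was 82.3-fold and 101-fold higher, and *SIM2*, a bHLH-PAS factor, 261-fold and 70.5-fold. *PRLH* (13.2-fold and 27.4-fold, chr7:4846590-4847534) lies beside the rule gene *MLPH* (chr7:4848100-4867111), so that reads of one may be counted for the other.

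*PMEL*, which forms the fibrils of the melanosome, split the members unequally between the libraries. It was detected in 42 of 100 members of the HVP library and 66 of 72 of the Normal library, at 463 and 2637 CPM. After thinning to 2000 UMIs the shares were 36.4% and 84.5%, against 0.158% and 0.346% of the other barcodes. The members without *PMEL* were thus 58 in HVP but 6 in Normal, of which 2 were threshold barcodes. A comparison within the Normal library therefore rests on few barcodes. *PMEL* is itself a rule gene, so its share in members against other barcodes is partly set by the rule. It was among the 3 markers of 6 of 8 Normal threshold barcodes, against 0 of 6 in HVP. With at least 4 markers it was found in 42 of 94 HVP and 60 of 64 Normal barcodes.

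In both libraries at once, 41 of 2510 genes (1.63%) were at least 2-fold higher and 50 (1.99%) at least 2-fold lower in *PMEL*-positive members. With at least 4 markers these numbers were 18 and 13 of 1980, and 11 and 5 of the genes remained. The 5 with the largest ratios upward were *TUBB3*, *TCF25*, *HMOX1*, *B3GNT9* and *GSTO2*. Downward they were *SORCS2*, *AQP1*, *LAMA2*, *ENOX1* and an unnamed gene, *ENSGALG00010014318*. Threshold barcodes held much of these: without them, 13 of the 42 *LAMA2* and 9 of the 28 *SORCS2* UMIs of *PMEL*-negative HVP members were left, beside 0 in *PMEL*-positive ones. In the Normal library without them, the 4 *PMEL*-negative barcodes had 0 UMIs of each of these 5 downward genes, against 1 to 14 in *PMEL*-positive ones. The Normal side of the 5 downward calls thus came from the 2 threshold barcodes.

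The comparison was therefore read in the HVP library with at least 4 markers, 42 *PMEL*-positive against 52 *PMEL*-negative barcodes with medians of 3924.5 and 3712.5 UMIs. This restriction was set after the data had been seen. Of 3462 genes, 118 (3.41%) were at least 2-fold higher and 239 (6.9%) at least 2-fold lower in the *PMEL*-positive ones.

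*CRPL1* ran from 0.452% over a median of 3.24% to 16.05% of UMIs in *PMEL*-positive barcodes and from 0.119% over 1.45% to 6.04% in *PMEL*-negative ones. The ranges overlapped, but 14 of 42 *PMEL*-positive and 2 of 52 *PMEL*-negative barcodes exceeded 5%. Its sums were 40239 and 18082 CPM, a ratio of 2.23 (2.14 to 2.31). *CRPL2* followed with 46 and 11 UMIs (4.95, 2.52 to 10.6).

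*TTR* had 105 UMIs in 19 of 42 *PMEL*-positive barcodes and 31 UMIs in 18 of 52 *PMEL*-negative ones, a ratio of 4.01 (2.66 to 6.19). One *PMEL*-positive barcode held 30 of the 105. *SLC6A15* ran from 0 over a median of 9.70 to 36.1 UMIs per 10000 with *PMEL* and from 0 over 4.81 to 28.5 without it (1.97, 1.55 to 2.51). The carrier and the transporter thus varied with *PMEL* in the same direction as *CRPL1*.

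Of 20 measured antioxidant genes 1 was at least 2-fold higher and 0 lower, with a median log2 ratio of -0.03 beside -0.10 over all genes. This was *HMOX1*, which had 40 UMIs in 14 of 42 *PMEL*-positive barcodes and 8 UMIs in 6 of 52 *PMEL*-negative ones (5.91, 2.73 to 14.6). *GSTO2*, a glutathione transferase of the omega class, had 90 and 40 UMIs (2.66, 1.81 to 3.96). The lipid exporter *ABCG1* (4.73, 2.02 to 12.8), the nuclear receptor *ESRRB* (4.05, 1.70 to 11.1) and *DLX2* (3.25, 1.39 to 8.45) were higher on 22 to 28 UMIs. *TUBB3*, a tubulin, had 30 and 7 UMIs, 16 of the 30 in 1 barcode, and its log2 ratio turned to -1.97 among all HVP members of 300 to 4000 genes with under 5% mitochondrial UMIs. *CHAD* and *PRELP*, matrix proteins, had large ratios (7.03 and 7.60) that came from 1 barcode each, with 89 of 107 and 42 of 45 UMIs.

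Regulators of the crest other than *DLX2* were not past 2-fold. *PAX3* was at 735 and 842 CPM (0.872, 0.693 to 1.10), *TFAP2A* at 354 and 317 CPM (1.11, 0.782 to 1.59) and *TFAP2B* at 365 and 336 CPM (1.09, 0.767 to 1.53). *PAX7* was lower with *PMEL*, at 136 and 253 CPM (0.538, 0.321 to 0.877), and was found in 15 of 42 and 27 of 52 barcodes. The transporter *SLC6A6* had a ratio near 1 (0.898, 0.764 to 1.05). The median log2 ratio of the neural crest list was 0.09, beside -0.10 over all genes.

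Several genes lower with *PMEL* were carried by few barcodes. *PTGDS* had 7 and 68 UMIs, 40 of the 68 in 1 barcode, and *EBF2*, a factor of mesenchymal cells, 5 and 65, with 43 in 1. *SCARA5*, a ferritin receptor, had 1 and 30 UMIs in 1 and 5 barcodes, and *RGS4* 0 and 23 UMIs in 0 and 6 barcodes. *FEZ1*, named for axon growth, was spread more evenly, with 2 UMIs in 2 of 42 and 19 UMIs in 15 of 52. So were *CECR2* (2 UMIs in 2 and 23 UMIs in 17) and *STXBP6* (1 UMI in 1 and 22 UMIs in 11), named after their values were seen. Extracellular matrix genes had a median of -0.47, with 4 of 17 at least 2-fold lower and 1 higher. Of secreted signals and carriers 4 of 19 were lower and 1 higher, and of adhesion genes 3 of 17 were lower and 0 higher. Over all genes 6.9% were lower and 3.41% higher. In the Normal library the 4 *PMEL*-negative barcodes with at least 4 markers gave ratios of 1.72 for *CRPL1*, 1.46 for *SLC6A15* and 1.26 for *TTR*.

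**Figure D4:**
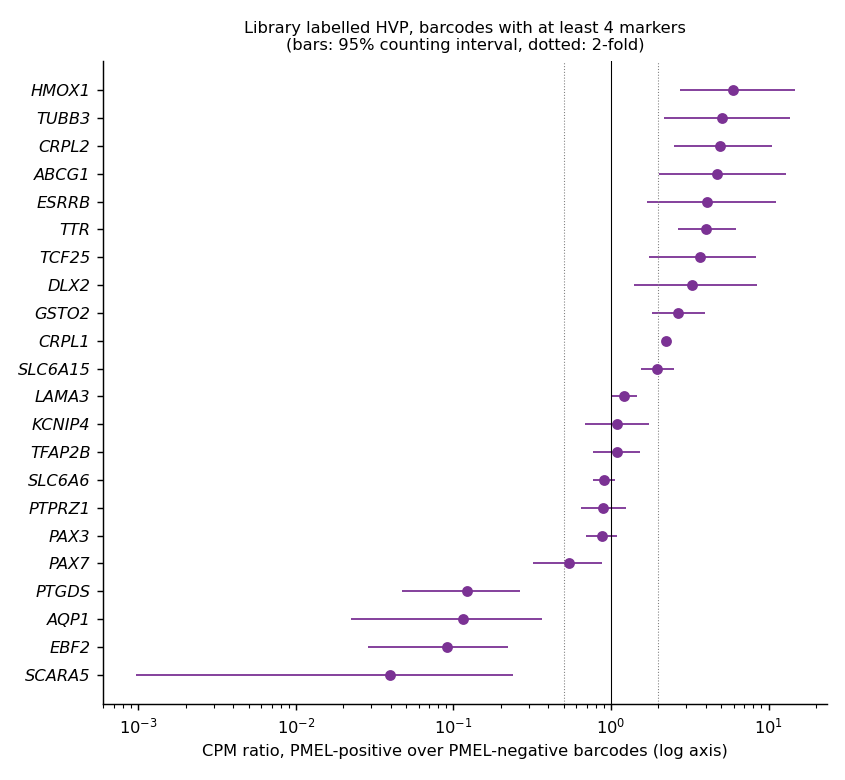
CPM ratio of *PMEL*-positive over *PMEL*-negative barcodes (horizontal, log axis) in the library labelled HVP with at least 4 markers, for named genes. Bars are 95% counting intervals and dotted lines mark 2-fold. *CRPL1* lies at 2.23 and *TTR* at 4.01, the crest regulators *PAX3* and *TFAP2B* lie near 1, and *PTGDS*, *EBF2*, *SCARA5* and *AQP1* lie below 0.2, *AQP1* with 21 of 31 *PMEL*-negative UMIs in 1 barcode and the opposite direction with at least 5 markers.

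Between the libraries, 84 of 2673 genes with at least 50 UMIs over both (3.14%) were at least 2-fold higher and 47 (1.76%) at least 2-fold lower in HVP than in Normal melanocyte-like barcodes. The median log2 ratio was 0.05, beside -0.04 in the other kept barcodes. With at least 4 markers, 80 and 32 of 2213 were past 2-fold, and 51 of the 84 and 15 of the 47 genes remained. Each library is 1 sample, so that differences of the birds, the dissociation and the library preparation cannot be told apart from those of the pigmentation. The libraries also differed in the members with a *PMEL* UMI, 42 of 100 in HVP and 66 of 72 in Normal. *CRPL1* and *TTR* were higher with *PMEL* in the HVP library, and the ratios between the libraries were not adjusted for this.

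*SIM2* differed across many barcodes. It had 287 UMIs in 75 of 100 HVP members and 42 UMIs in 17 of 72 Normal members, from 0 over a median of 4.78 to 34.7 UMIs per 10000 in HVP and from 0 over 0 to 14.8 in Normal. The ratio was 4.27 (3.08 to 6.06), against 1.15 (0.803 to 1.67) in the other barcodes. *IL17REL*, a receptor-like gene, had 57 UMIs in 19 HVP and 5 UMIs in 2 Normal members (7.13, 2.88 to 22.8). The cell adhesion gene *CADM3* (48 and 7 UMIs; 4.29, 1.93 to 11.2) was higher too. It reached 8.40 with at least 4 markers and was at 1.82 in the other barcodes. An unnamed gene, *ENSGALG00010016408*, had 52 and 6 UMIs (5.42), and *ENSGALG00010000003*, one of the mitochondrial identifiers, had a ratio of 4.68 in members and 2.56 in the others.

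*TTR* ran the other way, with 136 and 291 UMIs, 295 and 1011 CPM, and a ratio of 0.292 (0.237 to 0.359). The gene was found in 37 of 100 and 36 of 72 members, and the top barcodes held 30 and 45 UMIs. *TMEM164* (20 and 44 UMIs; 0.284, 0.159 to 0.493) and *SLIT2*, a guidance ligand (113 and 206 UMIs; 0.343, 0.270 to 0.434), were lower in HVP as well. *SLIT2* had a ratio of 1.22 in the other barcodes. *PRLH* (0.344) and the membrane antigen *PSCA* (0.355) were also lower, and *PRLH* was at 0.715 in the other barcodes.

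Other large ratios rested on single barcodes. *LYVE1*, a lymphatic marker, had 5 and 67 UMIs (0.0467), but all 67 lay in 1 threshold barcode, and with at least 4 markers it had 4 and 0. *TFPI2* (0.264) turned to 1.55 with at least 4 markers, since 47 of its 64 Normal UMIs lay in 1 barcode. *ABHD17B* (0.268) had 24 of 35 Normal UMIs in 1 barcode, and with at least 4 markers it had 7 and 9.

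Of 60 measured transporters and channels, 3 were at least 2-fold higher in HVP and 1 lower, beside 3.14% and 1.76% of all genes. *SLC35F1* (3.37, 2.15 to 5.51), the vitamin C transporter *SLC23A2* (2.54, 1.50 to 4.52) and *KCNIP4* (2.48, 1.66 to 3.81) were the higher ones, and the proton pump subunit *ATP6V0E1* (0.495, 0.338 to 0.720) the lower. *SLC23A2* reached 5.82 (2.53 to 16.5) with at least 4 markers. The transporters that mark the class differed less: *SLC6A15* had a ratio of 1.12 (0.925 to 1.36), *SLC38A11* 1.45 (1.008 to 2.13) and *SLC6A6* 1.45 (1.25 to 1.67).

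Among 81 secreted proteins 4 were higher and 3 lower, beside 3.14% and 1.76% of all genes. Higher were *THBS2*, with 75 of 98 HVP UMIs in 1 barcode, *PTGDS* (2.42, or 1.59 with at least 4 markers), the protease *PLAU* (2.41, 1.48 to 4.11) and *ADAMTS4* (2.08, 1.07 to 4.36). The same limits on genes and mitochondrial UMIs turned *ADAMTS4* to a log2 ratio of -0.68 and *THBS2* to -0.14. *TTR*, *SLIT2* and *SEMA3D* (0.466, or 0.895 with at least 4 markers) were lower. *CRPL1* had a ratio of 0.671 (0.654 to 0.689) and *CLU* one of 0.982 (0.859 to 1.12).

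Of 67 receptors 5 were higher and 1 lower, beside 3.14% and 1.76% of all genes. Beside *IL17REL*, the higher ones were *ROBO2*, a SLIT receptor (3.37, 1.85 to 6.64, beside 2.44 in the other barcodes), *TNFRSF1A* (2.69), *ADGRL2* (2.48, or 1.41 with at least 4 markers) and *PTPRS* (2.07, 1.46 to 2.98). With at least 4 markers *PTPRS* had 121 and 36 UMIs and fell under 2-fold. *SORCS2* was lower (0.373), but at 1.72 with at least 4 markers.

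**Figure D5:**
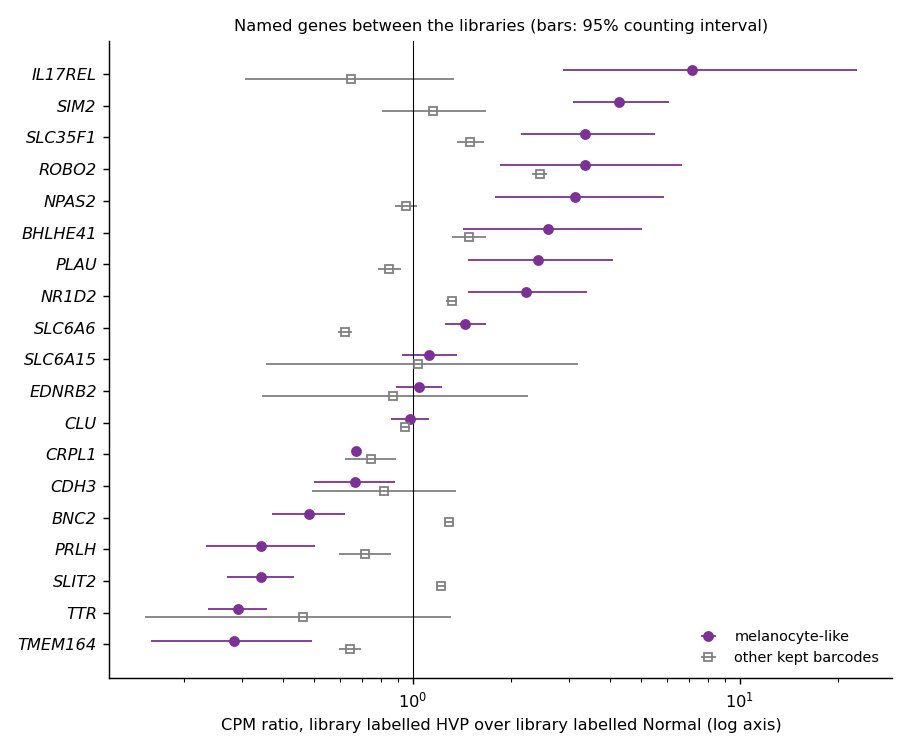
CPM ratio of the library labelled HVP over the library labelled Normal (horizontal, log axis) for named genes in melanocyte-like barcodes (filled circles) and in other kept barcodes (open squares), with 95% counting intervals. *SIM2* lies at 4.27 in members and 1.15 in the others, *SLC6A15* and *CLU* lie near 1 in both, and *TTR* lies at 0.292 in members with a wide interval in the others.

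Regulators were past 2-fold in 9 of 158 cases, 5 higher and 4 lower, beside 3.14% and 1.76% of all genes. The family was thus close to the share of all genes. Beside *NPAS2*, a clock factor (3.13, 1.78 to 5.86), *BHLHE41* (2.59, 1.43 to 5.03) was higher, a repressor in the same clock, and in the other barcodes their ratios were 0.955 and 1.48. *NR1D2*, a nuclear receptor of the clock, was at 2.22 (1.48 to 3.42). *EBF2* (2.57) had 43 of 78 HVP UMIs in 1 barcode and turned to a log2 ratio of -0.19 under those limits, and *SMARCC1* was at 2.08 (1.07 to 4.36). With at least 4 markers *EBF2* had 70 and 9 UMIs, and *SMARCC1*, with 36 and 11, fell under 2-fold. *BNC2*, a zinc finger factor known for pigment pattern in fish, was lower (0.480, 0.371 to 0.620) with 109 and 142 UMIs, and was found in 27 of 100 and 41 of 72 members. The other barcodes had a *BNC2* ratio of 1.29. *ZBTB32* (0.467), *HOXB4* (0.479, or 0.605 with at least 4 markers) and *EBF3* (0.427, or 0.752 with at least 4 markers) were the remaining lower ones. *ZBTB32* had 52 and 57 UMIs with at least 4 markers and was then under 2-fold apart as well.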

How the data were processed

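Single-cell suspensions of 10 birds per group gave 1 library each, and the groups follow the sample titles. The deposited values are raw UMI counts per gene and barcode, which the authors made with Cell Ranger 7.1.0 against GRCg7b with mitochondrial annotation added by hand. The files held 36100448 UMIs over 7157 barcodes (HVP) and 26865572 over 6981 (Normal). Barcodes with more than 1000 genes were kept, which is a limit the study states. Its further steps were not applied, so the kept barcodes are not its set of cells. Its cell names were not used, and no doublet caller was run. UMI counts were summed over barcodes, divided by the total and given as CPM. Ratios carry 95% conditional binomial intervals, which cover counting error only. With 1 library per group there was no test.

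Members and lists were chosen with earlier results of these data known. Genes named were, per family, the 6 with the largest smaller-library ratio among those with at least 20 member UMIs in each library, the 10 with the largest such ratio of any family, the 5 most apart in each direction for *PMEL* and for the libraries, family members past 2-fold between the libraries, and the extremes of each list. Others were picked after their values were seen. A few genes of these rules and lists are not reported here. The comparison in the HVP library alone, its alternatives and the list medians with at least 4 markers were added after seeing the data. RefSeq positions matched 12749 of 13918 symbols. Alternatives changed the markers needed, gene limits, scaling, thinning depth and count filters. The steps were tested on simulated data. Tools were Python 3.11.15 with numpy 2.4.6, scipy 1.17.1, pandas 2.3.3 and matplotlib 3.10.9, and edgeR 4.0.16 in R 4.3.3 for TMM factors.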

Additional observations from a re-analysis of the deposited data

Results flagged for a closer look

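For 12 of the named genes the HVP over Normal ratio lay on one side of 1 in melanocyte-like barcodes and on the other in the other kept barcodes. Both counting intervals left out 1. Only genes already named were searched, so 12 is not a count over all measured genes. These differences were not tested. Higher in melanocyte-like and lower in other barcodes were *SLC23A2* (2.54 against 0.923), *ADGRL2* (2.48 against 0.819), *PLAU* (2.41 against 0.848), *ADAMTS4* (2.08 against 0.921), *LAMA3* (1.61 against 0.906), *SLC6A6* (1.45 against 0.622) and *HEY2* (1.40 against 0.584). The opposite held for *SLIT2* (0.343 against 1.22), *BNC2* (0.480 against 1.29), *SEMA3D* (0.466 against 1.25), *SORCS2* (0.373 against 1.41) and *LYVE1* (0.0467 against 1.51). With at least 4 markers *SORCS2* was at 1.72, *SEMA3D* at 0.895 and *ADGRL2* at 1.41, and *LYVE1* had 4 and 0 UMIs.

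Barcodes with at most 1000 genes were outside the comparisons. Of these, 13 of 1291 in the HVP library and 17 of 1517 in the Normal library had a UMI of at least 3 rule markers, and 10 and 17 of those also held *CRPL1*. *CRPL1* exceeded 1% of UMIs in 9 HVP and 18 Normal barcodes under the limit, with medians of 1489 and 1597 UMIs.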

How the results depend on the processing

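Of 549 ratios of single genes between melanocyte-like and other barcodes under an alternative, 433 stayed within their interval, 116 moved and 0 changed sign. The HVP members numbered 54 when barcodes of 300 to 4000 genes with under 5% mitochondrial UMIs were used. Genes at least 8-fold higher numbered 30 at 1000 UMIs per barcode, 33 with at least 50 member UMIs and 119 with at least 5. The *PMEL* comparison in both libraries gave 18 higher and 13 lower genes with at least 4 or 5 markers, 23 and 30 under the gene and mitochondrial limits, 19 and 15 without members that held 3 markers of another class, 13 and 12 at 2000 UMIs, 13 and 5 at 1000 UMIs, and 11 and 11 with at least 50 UMIs. The genes themselves mostly changed. Of the main 41 and 50, only 10 and 1 remained without members that held another class. Under the gene and mitochondrial limits 6 and 8 remained, at 2000 UMIs 6 and 4, and at 1000 UMIs 7 and 1. With at least 50 UMIs 11 and 11 remained. With members chosen by the 9 rule markers other than *PMEL*, 35 and 38 remained. In the HVP library alone, 156 genes were higher and 400 lower, with 239 lower at 4 markers and 76 and 154 past 2-fold at 2000 UMIs. Of the 156 and 400, 90 and 184 remained at 4 markers, and 28 and 67 at 2000 UMIs. With at least 2 *PMEL* UMIs 89 and 322 remained. Log2 ratios changed sign for *AQP1* (1.67 with at least 5 markers and 1.61 without members that held another class), *TUBB3* (-1.97) and *PRELP* (-1.75) under the gene and mitochondrial limits, and *ENSGALG00010003205* (0.028) without members that held another class. Between the libraries the counts were 37 and 17 at 2000 UMIs, 17 and 5 at 1000 UMIs, 357 and 236 with at least 20 UMIs, 29 and 16 with at least 100, and 135 higher after division by the ratio in other barcodes. Of the main 84 and 47, 18 and 6 remained at 2000 UMIs, and 35 and 9 without members that held another class. Signs changed for *TFPI2* (0.63 with 4 markers, 0.70 with 5, 2.29 without members that held another class), *SORCS2* (0.78 with 4 markers, 1.95 without such members), *SEMA3D* (2.75 without such members), *PTGDS* (-0.44 with 5 markers), *THBS2* (-0.39 without such members, -0.14 under the gene and mitochondrial limits), *EBF2* (-0.19 under those limits, -0.059 at 1000 UMIs) and *ADAMTS4* (-0.68 under those limits), and at 1000 UMIs for *ABHD17B* (0.11) and *EBF3* (0.20). The cause was not tested. Thinning and higher count limits leave fewer genes to compare. No paired analysis was possible because each group is 1 library.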
